A study of Homo sapiens with 6 samples.

Results

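MDA-MB-231 cells, a human triple-negative breast cancer line, were given 200 nM of PCI-24781, an inhibitor of histone deacetylases (HDACs), and their transcriptomes after 24 h and after 48 h were compared to show which genes faded, persisted or grew under continued drug. Genes entered the comparison when their FPKM, the fragment count scaled to transcript length and sequencing depth, was at least 1 in either library, which kept 11760 of the 16623 genes in the files. Each gene was followed by its difference in log2(FPKM + 1), 48 h minus 24 h, and was called higher or lower when that difference reached 2-fold. The series held 6 libraries of the same line, 1 for each of DMSO (the solvent alone), 100 nM and 200 nM PCI-24781 at 24 h and at 48 h. With 1 library per condition no difference had a replicate check or a p-value, and every statement below compares those libraries. The libraries were made from bulk cultures, so fewer cells of a state and less RNA per cell cannot be told apart.

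HDACs remove acetyl groups from histones and other proteins, and acetylated histones mark open, active chromatin. PCI-24781 is a phenyl hydroxamic acid that binds the catalytic zinc of several HDACs. Inhibitors of this class raise and lower many transcripts at once, and CDKN1A, which encodes a cell cycle inhibitor, is a widely used marker of their action. Cells kept in culture for longer also change without any drug as they grow denser and use up medium, and the DMSO and 100 nM pairs were therefore set beside the 200 nM pair. These 3 time comparisons shared no library.

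The libraries were of similar depth, about 16000000 to 19100000 fragments as estimated from the steps of the FPKM values, the lowest being 200 nM 48 h. An FPKM of 1 on a transcript of 2 kb then rested on 31.7 to 37.1 fragments, a counting SD of 16.4% to 17.8%, and this covers counting error only. Markers of the cell line (VIM, CD44, AXL and others) had a median of 278 to 339 FPKM in the 6 libraries, although SPARC stayed between 0.44 and 1.97 FPKM. Markers of blood cells, fibroblasts and endothelium had medians of at most 0.45 FPKM in any library, and ESR1, which defines luminal lines, at most 0.04 FPKM. A separate matter touched the 48 h comparators. The 155 genes that were at least 2-fold higher at 100 nM 24 h than at DMSO 24 h (1.35% of 11475 genes) had a median of 1.63 FPKM in DMSO 24 h and 5.57 in 100 nM 24 h, but 5.68 in the library labelled DMSO 48 h and only 3.25 in the library labelled 100 nM 48 h. The drug-free 48 h library thus stood above the 100 nM one on genes that 100 nM had raised. An exchange of these 2 libraries and a true change with time in culture cannot be told apart, and the 200 nM pair uses neither. Values from them are given below by their labels, and the leading ones also with the 48 h libraries exchanged.

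From 24 h to 48 h of 200 nM, 88 of 11760 genes were at least 2-fold higher (0.748%) and 21 were at least 2-fold lower (0.179%). At 1.5-fold the counts were 454 higher (3.86%) and 243 lower (2.07%). The median gene differed by -0.002 and the 5th and 95th percentiles were -0.44 and 0.53 on the log2 scale. By any amount, 5820 of the 11760 genes were higher and 5908 lower, and counts of list members by any amount are to be read against these. In DMSO 286 genes were higher (2.49% of 11490) and 15 lower (0.131%) at 48 h, and at 100 nM 111 were higher (0.961% of 11556) and 99 lower (0.857%). As labelled, the 200 nM pair had the smallest number of 2-fold differences of the 3 time comparisons. With the 48 h libraries of DMSO and 100 nM exchanged, 184 genes were higher (1.62% of 11367) and 29 lower (0.255%) against DMSO 24 h, and 59 were higher (0.511% of 11556) and 7 lower (0.0606%) against 100 nM 24 h, which was fewer than in the 200 nM pair.

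**Figure D1:**
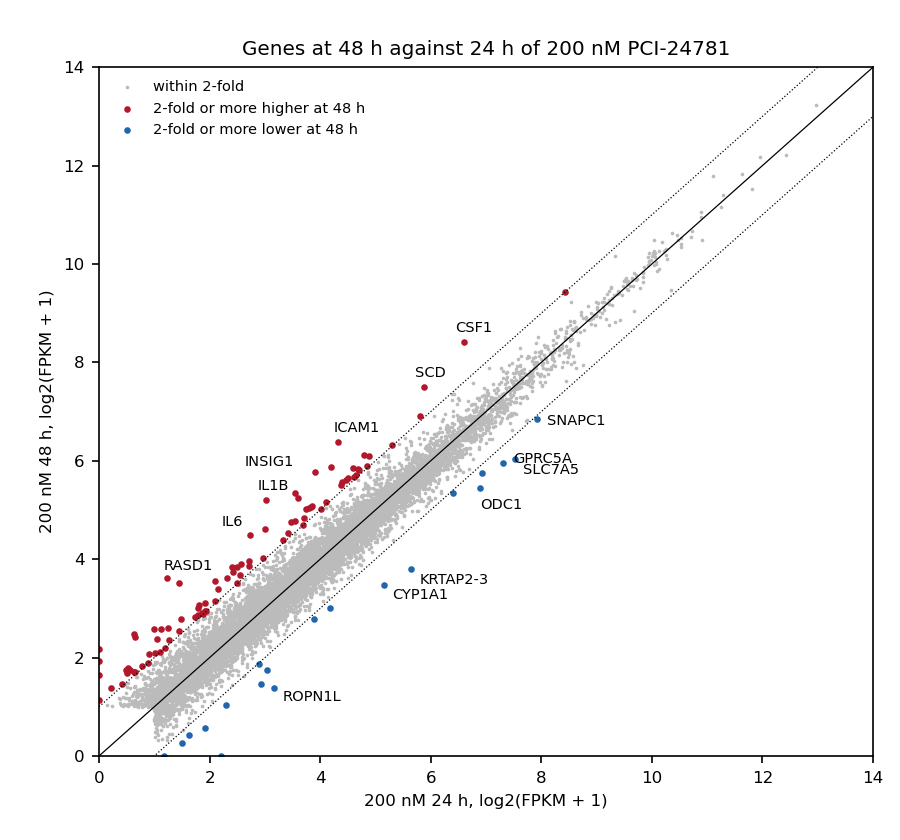
Each point is a gene with a symbol, plotted by its log2(FPKM + 1) at 24 h (x axis) and 48 h (y axis) of 200 nM PCI-24781, 1 library per axis; the solid line marks equal levels and the dotted lines a 2-fold difference. Most genes lie between the dotted lines, and more points lie beyond the upper line (88 genes) than beyond the lower (21 genes, 1 of them without a symbol and not drawn).

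The DMSO pair shared 41 of these 88 raised genes, which was 46.6% of the 88 and 14.3% of the 286. All but 10 of the 88 were higher by some amount in DMSO, with a median difference of 0.95, where 5700 of all 11490 genes were higher. In the 100 nM pair 22 of the 88 were called higher, 25% of the 88 and 19.8% of the 111. By some amount 69 were higher there, as were 5214 of all 11556 genes. With the 48 h libraries exchanged, 32 of the 88 were called higher against DMSO 24 h and 27 against 100 nM 24 h. By some amount 76 and 85 of the 88 were then higher. Among the 21 lowered genes 2 were also called lower in DMSO (9.52% of the 21, 13.3% of the 15) and 3 at 100 nM (14.3% of the 21, 3.03% of the 99). Across 11347 genes the 200 nM differences had a Pearson correlation of 0.31 with those in DMSO and 0.41 with those at 100 nM. With the 48 h libraries exchanged the correlation was 0.31 against DMSO 24 h and 0.59 against 100 nM 24 h. These values are a description across genes, which are not independent replicates. Most of the 88 genes higher at 48 h of 200 nM were thus also higher by some amount in the DMSO pair as labelled, and 46.6% of them by 2-fold.

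RASD1, which encodes a small Ras-like GTPase that glucocorticoids induce, showed the widest gap upward. It stood at 1.36 FPKM at 24 h and 11.3 FPKM at 48 h of 200 nM, a log2 difference of 2.38. It also went from 2.77 to 10.2 FPKM in DMSO and from 1.26 to 14.9 FPKM at 100 nM, so all 3 libraries at 48 h lay above all 3 at 24 h. ANGPTL2, a secreted angiopoietin-like protein, went from 1.71 to 10.5 FPKM at 200 nM, from 1.24 to 6.94 in DMSO and from 1.85 to 5.92 at 100 nM. SLC37A2, a sugar phosphate transporter, went from 10.7 to 39.7 FPKM at 200 nM, from 17.3 to 40.2 in DMSO and from 16.1 to 45.3 at 100 nM. In these genes too all libraries at 48 h lay above all libraries at 24 h.

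Genes of cholesterol synthesis and uptake were the list with the highest median at 200 nM. These genes are switched on together by the transcription factor SREBF2 when sterols in the endoplasmic reticulum run low, and their enzymes turn acetyl-CoA into cholesterol by way of mevalonate and squalene. Of 24 measured members, 22 were higher at 48 h, 14 by at least 1.5-fold and 5 by at least 2-fold, and none was lower by 1.5-fold. The median difference was 0.76 at 200 nM, 0.75 in DMSO and 0.51 at 100 nM, against -0.002, -0.003 and -0.04 over all genes. With the 48 h libraries exchanged it was 0.56 against DMSO 24 h and 0.77 against 100 nM 24 h, so the list was higher at 48 h under every pairing.

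INSIG1 (chr7:155089486-155101945 in hg19, plus strand), an endoplasmic reticulum protein that holds SREBP precursors in place and is itself an SREBP target, led the list. Its level was 14.1 FPKM at 24 h and 53.8 FPKM at 48 h of 200 nM, 18.4 and 64.9 in DMSO, and 15.4 and 60.8 at 100 nM. The 3 arms moved side by side, with differences of 1.86, 1.77 and 1.91. MSMO1, the sterol C4 methyl oxidase, went from 26.6 to 68.8 FPKM at 200 nM, from 22.2 to 68.1 in DMSO and from 27.9 to 47.7 at 100 nM. HMGCS1, the synthase that makes HMG-CoA, went from 5.54 to 14.7 FPKM at 200 nM, from 6.34 to 14.8 in DMSO and from 6.05 to 9.99 at 100 nM. For both enzymes the 200 nM and DMSO libraries at 48 h were close, and the 100 nM library was lower. IDI1, which isomerises isopentenyl diphosphate, went from 16.2 to 34.9 FPKM at 200 nM, and STARD4, a sterol carrier, from 15.2 to 31.5.

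SREBF2 itself stayed under the 2-fold line and went from 28.9 to 49.7 FPKM at 200 nM, from 30.9 to 54.0 in DMSO and from 28.5 to 49.4 at 100 nM. PMVK, a kinase of the mevalonate steps, was among the members that were lower at 48 h, at 18.4 and 16.5 FPKM.

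In fatty acid synthesis and desaturation 12 of 15 measured members were higher at 48 h of 200 nM, 5 of them by at least 1.5-fold and 1 by 2-fold, with a median of 0.30 (0.50 in DMSO, 0.39 at 100 nM). SCD, the desaturase that makes oleic acid, went from 57.5 to 179 FPKM at 200 nM, from 60.7 to 206 in DMSO and from 56.9 to 224 at 100 nM. FASN, the fatty acid synthase, went from 34.4 to 68.8 FPKM at 200 nM, from 38.8 to 77.5 in DMSO and from 32.4 to 74.7 at 100 nM. In both genes the 200 nM library was the lowest of the 3 at 48 h. FADS1, a desaturase of polyunsaturated fatty acids, had a wider gap at 200 nM (31.9 to 62.3 FPKM) than in DMSO (60.0 to 70.8 FPKM), and its 24 h levels were lower with each dose.

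Cytokines, chemokines and other targets of NF-kB were the list with the next highest median. NF-kB is a family of dimeric transcription factors that is held in the cytoplasm by inhibitors such as NFKBIA and that turns on inflammatory and survival genes, its own inhibitors among them. MDA-MB-231 cells are known for constant NF-kB activity and for the cytokines they secrete. Of 26 measured members, 22 were higher at 48 h of 200 nM, 15 by at least 1.5-fold and 8 by at least 2-fold, and 1 was lower by 1.5-fold. The median was 0.75 at 200 nM, 0.81 in DMSO and 0.24 at 100 nM, and with the 48 h libraries exchanged 0.54 against DMSO 24 h and 0.72 against 100 nM 24 h.

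The sequences just before the start sites of 4 of these genes are shown because the list was assembled as NF-kB targets. Each is the 250 bases 5′ of the RefSeq start on GRCh38.p14, written 5′ to 3′ along the gene, with matches to GGAATTTCC, GGATTTTCC or GGACTTTCC on either strand in capitals.
IL6 (chr7:22726950-22727199, plus strand): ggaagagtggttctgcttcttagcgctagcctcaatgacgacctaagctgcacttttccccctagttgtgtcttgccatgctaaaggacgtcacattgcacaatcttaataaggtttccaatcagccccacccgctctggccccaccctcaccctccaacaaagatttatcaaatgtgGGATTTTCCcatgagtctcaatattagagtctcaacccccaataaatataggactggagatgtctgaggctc
CXCL8 (chr4:73740319-73740568, plus strand): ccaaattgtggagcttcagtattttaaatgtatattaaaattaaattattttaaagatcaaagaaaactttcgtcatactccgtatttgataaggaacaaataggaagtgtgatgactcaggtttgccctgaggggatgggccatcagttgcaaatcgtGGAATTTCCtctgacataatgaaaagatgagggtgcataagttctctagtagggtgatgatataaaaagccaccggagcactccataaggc
CXCL2 (chr4:74099196-74099445, minus strand): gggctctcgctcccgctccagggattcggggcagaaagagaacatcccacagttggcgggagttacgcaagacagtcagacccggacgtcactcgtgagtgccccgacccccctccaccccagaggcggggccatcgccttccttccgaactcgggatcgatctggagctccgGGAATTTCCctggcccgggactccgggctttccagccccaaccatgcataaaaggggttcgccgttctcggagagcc
ICAM1 (chr19:10270870-10271119, plus strand): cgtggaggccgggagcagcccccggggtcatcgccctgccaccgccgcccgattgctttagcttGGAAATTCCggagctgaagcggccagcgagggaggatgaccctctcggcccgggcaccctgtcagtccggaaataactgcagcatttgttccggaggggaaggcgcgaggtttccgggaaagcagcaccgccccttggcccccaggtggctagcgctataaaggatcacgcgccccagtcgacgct
The match began 72 bases before the start in IL6, 91 in CXCL8, 77 in CXCL2 and 186 in ICAM1, where it was on the opposite strand. Over the RefSeq windows of 250 bases before to 50 after a start, 12 of the 30 windows of genes on the list held a match (40%), against 1.17% of all 35116 windows. The genes were put on the list as known NF-kB targets and the letters were chosen after their values were seen, so this share describes the list and bears on no change. IL1B and PTGS2 had no match in their windows. The sterol response core CACCCCAC was in 1 of 24 windows of the cholesterol list, against 2.79% of all windows.

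IL1B, the precursor of interleukin-1 beta, had the largest difference of the list. It stood at 7.13 FPKM at 24 h and 35.7 FPKM at 48 h of 200 nM (2.17), at 3.45 and 38.2 in DMSO, and at 10.0 and 21.3 at 100 nM. IL6, whose product signals through STAT3, went from 5.68 to 21.6 FPKM at 200 nM, from 2.99 to 16.4 in DMSO and from 4.29 to 10.4 at 100 nM. The 3 libraries at 48 h lay above the 3 at 24 h for both cytokines. CXCL8, a neutrophil chemokine, went from 28.7 to 67.1 FPKM at 200 nM and from 11.6 to 64.1 in DMSO, but from 31.8 to 25.4 at 100 nM, where the times were in the opposite order. CXCL2, a related chemokine, went from 2.79 to 6.71 FPKM at 200 nM, from 3.61 to 10.1 in DMSO and from 4.24 to 7.22 at 100 nM. CXCL1, CXCL2 and CXCL3 are close paralogs, and reads may have been divided between them.

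ICAM1 (chr19:10381517-10397291 in hg19, plus strand), the adhesion molecule that binds leukocyte integrins, had a difference of 2.05. It went from 19.0 to 82.0 FPKM at 200 nM, from 17.2 to 66.3 in DMSO and from 20.7 to 57.7 at 100 nM, and its highest level in the series was at 200 nM 48 h. CSF1, the macrophage growth factor, was the most abundant member and went from 96.1 to 338 FPKM at 200 nM, from 95.5 to 310 in DMSO and from 104 to 302 at 100 nM. PTGS2, the inducible cyclooxygenase, went from 0.55 to 4.59 FPKM at 200 nM and from 0.50 to 3.40 in DMSO, but only from 0.73 to 1.01 at 100 nM. BCL3 and PTGES, outside the list, were picked from the called genes after their values were seen, so they add no weight to the list. BCL3, an atypical NF-kB inhibitor, went from 10.6 to 26.5 FPKM, and PTGES, the prostaglandin E synthase, from 24.1 to 51.7. The inhibitor NFKBIA went from 31.7 to 55.4 FPKM, a difference of 0.78, while CCL5 was the member lower by 1.5-fold, at 7.25 and 4.08 FPKM.

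**Figure D2:**
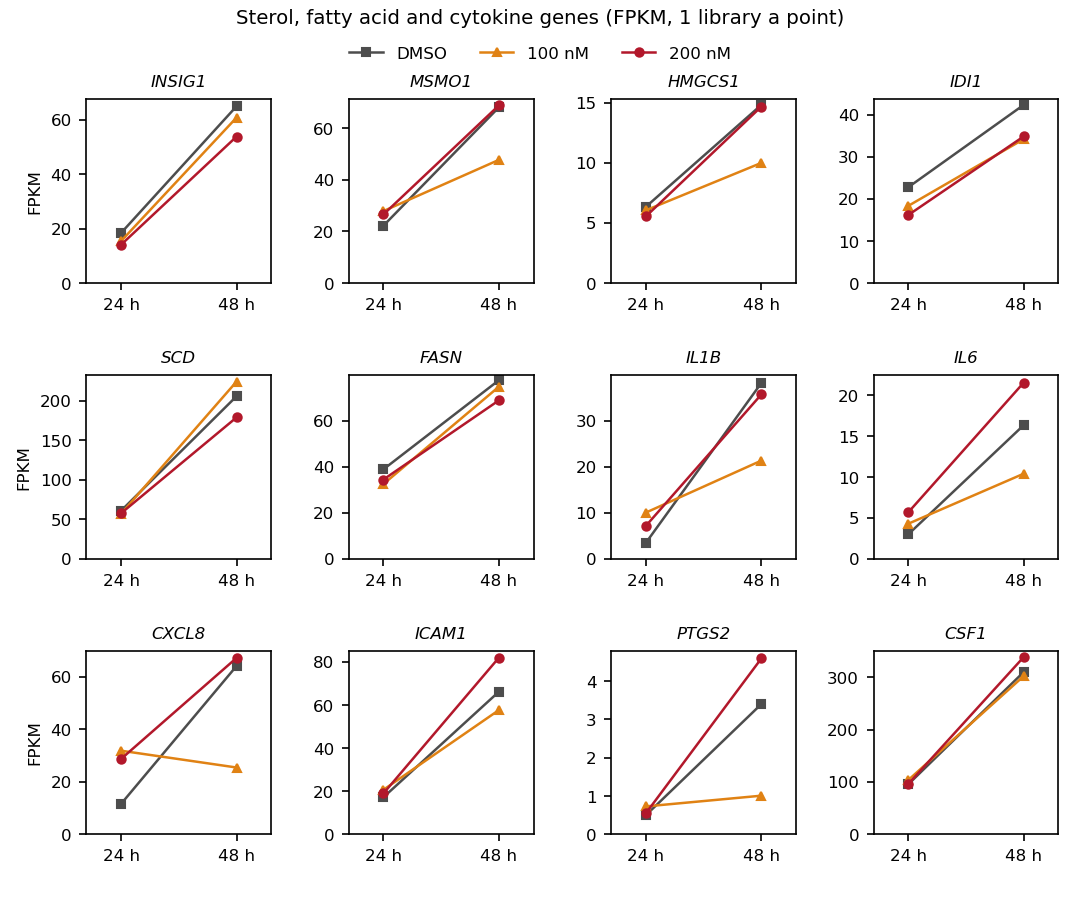
FPKM (y axis, from 0, own scale per gene) at 24 h and 48 h (x axis) of 6 sterol and fatty acid genes and 6 cytokine and NF-kB genes, 1 library a point; grey squares are DMSO, orange triangles 100 nM and red circles 200 nM. INSIG1, SCD, FASN and CSF1 run in parallel in the 3 arms, whereas CXCL8 and PTGS2 are low in the library labelled 100 nM 48 h.

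Secreted and adhesive genes formed another part of the raised set. Of 34 measured collagens, laminins and matrix proteins, 26 were higher at 48 h of 200 nM, 7 by at least 1.5-fold and 3 by 2-fold, and the median was 0.22 (0.41 in DMSO, 0.06 at 100 nM). LOX, which cross-links collagen, went from 11.2 to 36.7 FPKM at 200 nM, from 15.6 to 36.1 in DMSO and from 16.4 to 33.6 at 100 nM. COL8A1, a short-chain collagen, went from 7.03 to 23.6 FPKM at 200 nM, from 8.82 to 15.7 in DMSO and from 8.66 to 8.94 at 100 nM, and was highest in the series at 200 nM 48 h. FN1, fibronectin, went from 55.2 to 120 FPKM at 200 nM and from 39.7 to 104 in DMSO. Among 14 integrins 13 were higher, 5 by at least 1.5-fold, with a median of 0.36, but the DMSO median was larger at 0.71 and the 100 nM median was 0.05. ITGB3, a subunit of the vitronectin receptor, went from 4.62 to 10.4 FPKM at 200 nM, from 0.98 to 5.34 in DMSO and from 2.86 to 2.41 at 100 nM. KISS1, a metastasis suppressor peptide gene, went from 17.3 to 58.0 FPKM at 200 nM and from 20.8 to 54.8 in DMSO, yet from 31.6 to 16.8 at 100 nM.

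A smaller set was higher at 200 nM 48 h without being higher in DMSO as labelled. These were the 10 genes of the 88 with a DMSO difference below 0, namely SERPINH1, NMI, TYMS, IFIT3, ANXA3, TGFB1I1, NINJ2, SHLD1, SULT1A4 and SERF1A. With the 48 h libraries exchanged, TGFB1I1 (40.7 to 42.1 FPKM) and NINJ2 (6.85 to 9.0 FPKM) were higher against DMSO 24 h, and the others were not. SERPINH1 (chr11:75273101-75283849 in hg19, plus strand), the collagen chaperone HSP47, stood at 13.3 FPKM at 24 h and 32.3 FPKM at 48 h of 200 nM, at 61.5 and 34.7 in DMSO, and at 33.5 and 45.0 at 100 nM. Its 24 h levels were lower with each dose, whereas its 48 h levels in DMSO and 200 nM were close. TYMS, thymidylate synthase, stood at 38.4 and 79.1 FPKM at 200 nM, 153 and 102 in DMSO, and 88.2 and 97.4 at 100 nM. ANXA3, a calcium-dependent phospholipid binder, stood at 23.1 and 56.8 FPKM at 200 nM, 59.9 and 53.6 in DMSO, and 40.4 and 38.4 at 100 nM. TGFB1I1, a focal adhesion adaptor, stood at 12.8 and 31.9 FPKM at 200 nM, 40.7 and 40.3 in DMSO, and 28.7 and 42.1 at 100 nM. In all 4 genes 200 nM 24 h was the lowest of the 6 libraries, and only for ANXA3 was 200 nM 48 h above DMSO 48 h. Choosing genes that were higher at 48 h of 200 nM favours a low 200 nM 24 h level, so this is a description only. SULT1A4 and SERF1A were listed at 0 in 200 nM 24 h and have near-identical copies, so their values are uncertain.

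Interferon-stimulated genes, which encode antiviral proteins, were mostly higher at 48 h of 200 nM. Of 34 measured members 27 were higher at 48 h of 200 nM, 11 by at least 1.5-fold and 1 by 2-fold, and 1 was lower by 1.5-fold. The median was 0.35 at 200 nM, 0.05 in DMSO and 0.37 at 100 nM, and with the 48 h libraries exchanged 0.10 against DMSO 24 h and 0.28 against 100 nM 24 h. IFIT3, which binds viral RNA complexes, stood at 25 and 55.5 FPKM at 200 nM, 84.9 and 83.0 in DMSO, and 55.1 and 84.6 at 100 nM. Even at 48 h the 200 nM level of IFIT3 was below both DMSO libraries. NMI, an interferon-induced partner of STAT proteins that was not on the list, stood at 1.73 and 4.80 FPKM at 200 nM, 15.6 and 9.22 in DMSO, and 5.84 and 9.94 at 100 nM. OAS1, a sensor of foreign RNA, went from 1.58 to 3.81 FPKM at 200 nM, from 0.39 to 2.55 in DMSO and from 1.37 to 0.55 at 100 nM, so its DMSO difference (1.35) was larger than that at 200 nM (0.90). Its relative OAS3 went from 3.05 to 6.45 FPKM at 200 nM and from 4.60 to 6.98 in DMSO. DDX60, a helicase of antiviral sensing, went from 1.40 to 3.21 FPKM at 200 nM and from 3.48 to 4.56 in DMSO. ISG15, a ubiquitin-like modifier, was the member lower by 1.5-fold, at 52.8 and 30.7 FPKM.

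Antigen presentation moved with smaller differences. Of 16 measured genes of MHC class I presentation 13 were higher at 48 h of 200 nM, 2 by at least 1.5-fold, and the median was 0.29 (0.18 in DMSO, 0.22 at 100 nM). PSMB10, a catalytic subunit of the immunoproteasome, stood at 0.98 and 2.59 FPKM at 200 nM, 8.72 and 7.18 in DMSO, and 3.24 and 8.35 at 100 nM. PSMB8, another such subunit, stood at 15.8 and 26.1 FPKM at 200 nM, against 26.8 and 30.5 in DMSO.

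Genes of DNA replication and nucleotide supply were flat at 200 nM while lower at 48 h in the other arms. The median of 49 members was 0.06 at 200 nM, -0.33 in DMSO and -0.29 at 100 nM. Their summed level at 24 h was already lowest at 200 nM, at 1447 FPKM against 2146 in DMSO and 1870 at 100 nM. At 48 h the sums were closer, at 1567, 1670 and 1599 FPKM in the same order. At 200 nM 31 of the 49 were higher (5820 of all 11760 genes), 3 of them by at least 1.5-fold. With the 48 h libraries exchanged the medians were -0.42 against DMSO 24 h and -0.19 against 100 nM 24 h. MCM6, a subunit of the replicative helicase, stood at 20.2 and 33.3 FPKM at 200 nM, 41.4 and 31.6 in DMSO, and 33.7 and 28.6 at 100 nM. MCM5, its partner, stood at 19.2 and 31.2 FPKM at 200 nM, 39.5 and 35.9 in DMSO, and 30.9 and 34.1 at 100 nM. At 24 h both helicase genes were lowest at 200 nM, and at 48 h the 3 arms lay closer together. Naming list members by the size of their 200 nM difference favours such a pattern. Mitotic genes gave medians of -0.02 at 200 nM, -0.18 in DMSO and -0.24 at 100 nM over 50 members, none past 1.5-fold at 200 nM. CDC20, the activator of the anaphase-promoting complex, stood at 180 and 125 FPKM at 200 nM and 176 and 132 in DMSO.

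The 21 genes lower at 48 h included genes that had stood highest at 200 nM 24 h. A high level there is favoured by choosing genes that were lower at 48 h of 200 nM. CYP1A1 (chr15:75011883-75017951 in hg19, minus strand), the monooxygenase induced through the aryl hydrocarbon receptor, went from 34.7 to 10.2 FPKM at 200 nM, a difference of -1.68. It stood at 4.50 and 3.89 FPKM in DMSO and went from 17.1 to 4.38 at 100 nM. KRTAP2-3, a hair keratin-associated protein from a family of close copies, went from 49.2 to 12.9 FPKM at 200 nM, from 26.4 to 3.29 at 100 nM, and from 11.7 to 7.78 in DMSO. ROPN1L, a sperm flagellar protein, went from 7.99 to 1.59 FPKM at 200 nM and from 2.01 to 0.46 at 100 nM, against 0.31 and 0.83 in DMSO. In all 3 genes the 24 h levels were higher with each dose, and the 200 nM level at 48 h was still above that of DMSO 48 h. GPRC5A, a retinoic acid-induced orphan receptor, went from 157 to 60.8 FPKM at 200 nM against 54.0 and 46.6 in DMSO and 68.8 and 51.0 at 100 nM. MAPK8IP1, a JNK scaffold, went from 17.2 to 7.0 FPKM, SYP, a synaptic vesicle protein, from 6.40 to 2.65, and DHRS2, a reductase known to respond to HDAC inhibitors, from 2.11 to 0.34, with DMSO levels between 0.21 and 4.24 for these 3 genes.

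Other lowered genes were lower at 48 h in DMSO as well. SLC7A5 (chr16:87863629-87903100 in hg19, minus strand), the light chain of a large neutral amino acid transporter, went from 183 to 64.5 FPKM at 200 nM, from 100.1 to 51.7 in DMSO and from 107 to 57.8 at 100 nM. Its heavy chain SLC3A2 went from 83.9 to 39.5 FPKM at 200 nM, from 62.4 to 36.2 in DMSO and from 63.0 to 37.4 at 100 nM. ODC1, the first enzyme of polyamine synthesis, went from 118 to 42.8 FPKM at 200 nM, from 110.1 to 51.6 in DMSO and from 83.9 to 49.2 at 100 nM. For both chains of the transporter and for ODC1 the 3 libraries at 48 h lay below the 3 at 24 h. EBNA1BP2, a nucleolar factor for assembly of the large ribosomal subunit, went from 120.3 to 52.8 FPKM at 200 nM and from 89.7 to 56.8 in DMSO. SNAPC1, a subunit of the factor for small nuclear RNA promoters, went from 242 to 114 FPKM at 200 nM, but from 124 to 109 in DMSO. TAGLN, an actin-binding protein of smooth muscle, went from 7.22 to 2.36 FPKM at 200 nM and from 13.3 to 2.66 in DMSO.

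**Figure D3:**
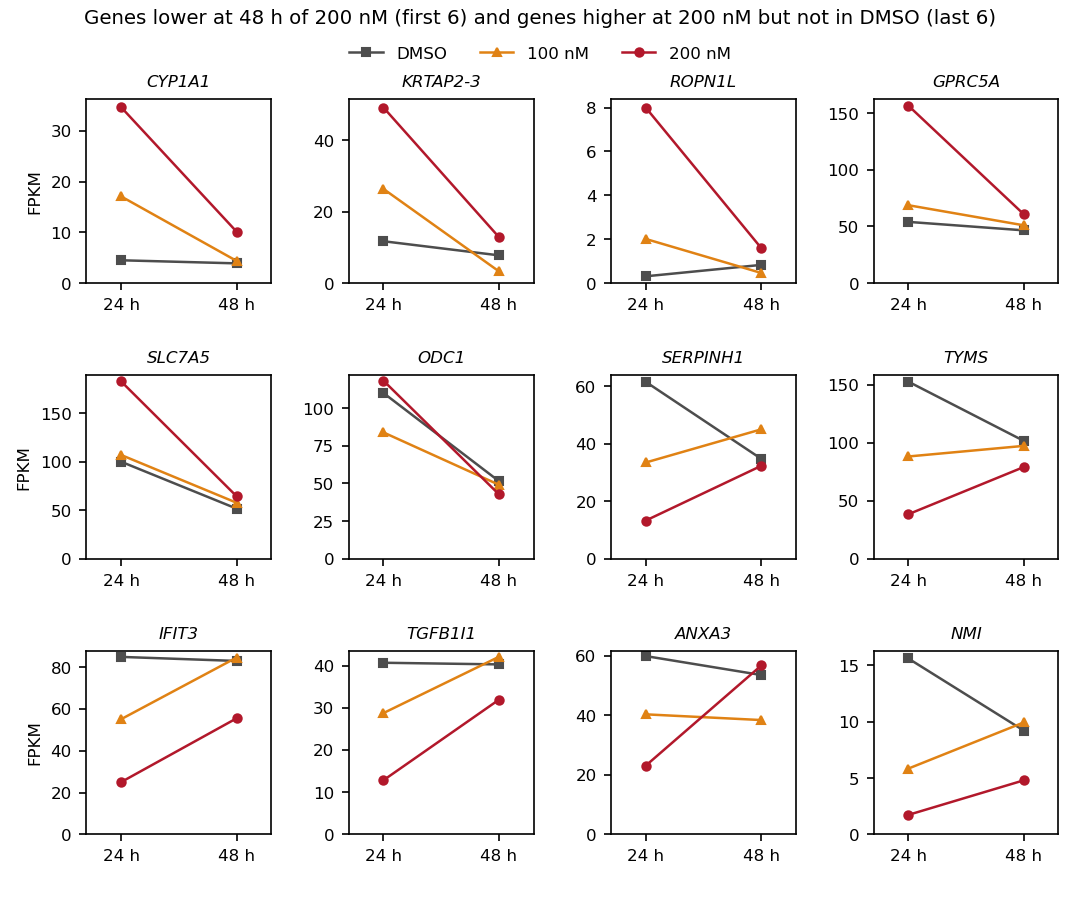
FPKM (y axis, from 0, own scale per gene) at 24 h and 48 h (x axis) of 6 genes lower at 48 h of 200 nM (CYP1A1 to ODC1) and 6 genes higher at 200 nM with a DMSO difference below 0 (SERPINH1 to NMI), 1 library a point; grey squares are DMSO, orange triangles 100 nM and red circles 200 nM. The arms lie farther apart at 24 h than at 48 h in most of the 12 genes, with 200 nM highest at 24 h in the first group and lowest in the second. Choosing the genes by their 200 nM difference favours this pattern.

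Genes of ribosome biogenesis were mostly lower at 48 h in every arm. Of 28 measured genes for nucleolar factors, RNA polymerase I subunits and MYC, 25 were lower at 48 h of 200 nM, 2 by at least 1.5-fold and none by 2-fold, and the median was -0.31 (-0.56 in DMSO, -0.42 at 100 nM). RRS1, a regulator of ribosome assembly, stood at 16.5 and 9.54 FPKM at 200 nM, 16.6 and 10.3 in DMSO, and 18.6 and 7.70 at 100 nM. NOP56, a core protein of box C/D particles, stood at 83.0 and 56.4 FPKM at 200 nM, 95.9 and 57.5 in DMSO, and 94.1 and 54.7 at 100 nM. In both genes the times did not overlap. The 76 cytosolic ribosomal protein genes were level, with a median of 0.07 and none past 1.5-fold. Proteasome subunits had a median of -0.15, with 24 of 31 lower and none past 1.5-fold, and DMSO and 100 nM gave -0.22 and -0.20.

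Targets of YAP, TAZ and TEAD, the effectors of the Hippo pathway that respond to cell density and tension, were lower at 48 h of 200 nM in 19 of 23 measured members, 4 by at least 1.5-fold and none by 2-fold. The median was -0.28 at 200 nM, 0.01 in DMSO and -0.43 at 100 nM, and with the 48 h libraries exchanged -0.11 against DMSO 24 h and -0.26 against 100 nM 24 h. DLC1, a tumour suppressor, stood at 60.7 and 34.4 FPKM at 200 nM, 35.3 and 32.3 in DMSO, and 40.6 and 29.9 at 100 nM. AMOTL2, a junctional scaffold that restrains YAP, stood at 71.5 and 40.7 FPKM at 200 nM, 39.9 and 33.0 in DMSO, and 53.1 and 30.5 at 100 nM. Both genes were highest at 200 nM 24 h, which naming members by the size of their 200 nM difference favours. Summed over the 24 listed genes, the 24 h level was 2095 FPKM in DMSO, 2892 at 100 nM and 3580 at 200 nM. At 48 h the sums were 2281, 1752 and 2749 FPKM in that order. The most abundant genes weigh most in these sums. Antioxidant genes under NRF2 were lower in 16 of 25 members (5908 of all 11760 genes), 4 by at least 1.5-fold. Their median was -0.20 (0.03 in DMSO, -0.03 at 100 nM). TXNRD1, cytosolic thioredoxin reductase, stood at 431 and 247 FPKM at 200 nM against 218 and 199 in DMSO, and GCLM, a subunit of the glutathione-making ligase, at 25.1 and 14.01 against 18.1 and 13.7. These transcripts, named in the same way, too had their highest level at 200 nM 24 h.

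To follow the early drug response without using either 200 nM library for the choice, the 155 genes higher at 100 nM 24 h than at DMSO 24 h were traced, of which 153 had an FPKM of at least 1 at 200 nM. At 200 nM 18 of the 153 faded by at least 1.5-fold (11.8%, against 2.07% of all genes), 121 persisted within 1.5-fold, and 14 grew by at least 1.5-fold (9.15%, against 3.86% of all genes). The median difference was -0.04, and the median level of the 155 was 8.29 FPKM at 24 h and 8.71 FPKM at 48 h of 200 nM. As a set these genes therefore stayed at about the same level from 24 h to 48 h, with a wider scatter in both directions than genes at large. The choice leaned on DMSO 24 h: against the library labelled DMSO 48 h only 4 genes followed at 200 nM were higher at 100 nM 24 h, with a median of -1.58.

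**Figure D4:**
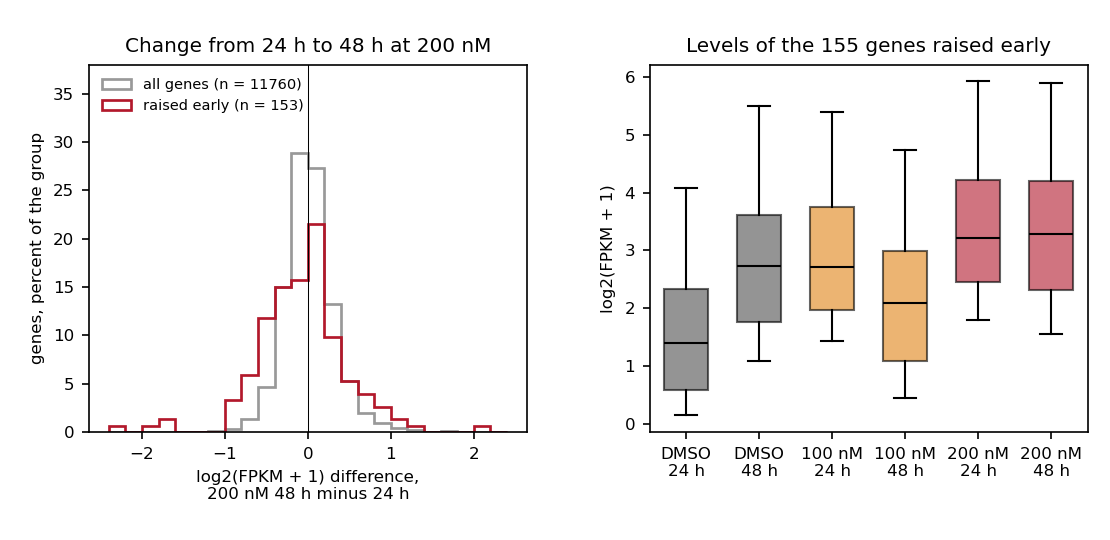
Left, the share of genes (y axis, percent of each group) by log2(FPKM + 1) difference between 48 h and 24 h of 200 nM (x axis, bins of 0.2), for all 11760 genes (grey) and the 153 genes raised at 100 nM 24 h (red). Right, log2(FPKM + 1) of the 155 genes in each library (line, median; box, quartiles; whiskers, 5th and 95th percentiles); the 2 boxes at 200 nM are level, and DMSO 48 h stands above 100 nM 48 h.

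The genes of this set with the largest falls were TGIF2-RAB5IF, KRTAP2-3, ROPN1L, CYP1A1, NANOS1 and IFT27. TGIF2-RAB5IF is a read-through transcript listed at 3.61 FPKM at 24 h and at 0 at 48 h, and its value is uncertain. NANOS1, an RNA-binding translational repressor, went from 15.6 to 7.86 FPKM at 200 nM and from 3.76 to 1.36 at 100 nM, against 1.06 and 2.43 in DMSO. IFT27, a GTPase of ciliary transport, went from 21.6 to 11.2 FPKM at 200 nM and from 15.3 to 9.83 at 100 nM, against 5.99 and 10.6 in DMSO. Each of these 6 genes was lower at 48 h at 200 nM, and all but TGIF2-RAB5IF were lower at 100 nM.

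The genes that grew most were IL1B, MAP3K7CL, CXCL8, LOXL4, SLAMF7 and LTBP1, so inflammatory and matrix genes were among them. LOXL4, a lysyl oxidase relative, went from 21.2 to 47.5 FPKM at 200 nM, from 3.32 to 20.6 in DMSO and from 12.5 to 10.4 at 100 nM. SLAMF7, an immune cell receptor, went from 8.70 to 17.3 FPKM at 200 nM, from 3.6 to 9.4 in DMSO and from 8.35 to 3.15 at 100 nM. LTBP1, which stores latent TGF-beta in the matrix, went from 5.88 to 11.8 FPKM at 200 nM, from 3.03 to 12.7 in DMSO and from 7.23 to 8.0 at 100 nM. All 6 genes were higher at 48 h at 200 nM and in the DMSO pair, and MAP3K7CL, CXCL8, LOXL4 and SLAMF7 were lower at 48 h at 100 nM.

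The 6 most abundant genes of the set are given as a description, since they were picked by their level at 200 nM 24 h and a lower value at 48 h is favoured by that choice. ANKRD1, a nuclear cofactor and YAP target, stood at 816 and 528 FPKM at 200 nM, 191 and 285 in DMSO, and 482 and 140.2 at 100 nM. CCN2, connective tissue growth factor, stood at 353 and 295 FPKM at 200 nM, 88.8 and 205 in DMSO, and 240.3 and 80.9 at 100 nM. IGFBP3, the main carrier of insulin-like growth factors, stood at 131 and 109.9 FPKM at 200 nM, 39.8 and 56.1 in DMSO, and 86.3 and 25.8 at 100 nM. Each of these genes was higher in both 200 nM libraries than in either DMSO library. CPA4, a carboxypeptidase first found as induced by an HDAC inhibitor, went from 72.0 to 39.6 FPKM at 200 nM, against 3.96 and 14.2 in DMSO. NRGN, a calmodulin-binding protein, went from 172 to 108, and TINAGL1, a matrix protein, from 84.6 to 61.5.

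The 15 genes lower at 100 nM 24 h than at DMSO 24 h (0.131% of 11475 genes) gave 11 that could be followed. Their median difference at 200 nM was 0.72, with 6 higher by at least 1.5-fold and 2 lower by at least 1.5-fold. SIGIRR, an inhibitory receptor of the interleukin-1 family, stood at 1.18 and 2.59 FPKM at 200 nM, 5.41 and 3.52 in DMSO, and 2.08 and 9.74 at 100 nM. ATF5, a stress transcription factor, stayed low at 4.01 and 4.87 FPKM, against 28.8 and 11 in DMSO. The set is small, it holds read-through and duplicated genes, and its median was 0.23 without genes listed at 0.

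The HDAC genes themselves were level. Of the 11 zinc-dependent HDACs none passed 1.5-fold between 24 h and 48 h of 200 nM, and the median was 0.04. HDAC1 stood at 74.1 and 66.2 FPKM, HDAC2 at 30.2 and 25.6, HDAC3 at 80.2 and 63.1, HDAC6 at 10.03 and 11.03, HDAC8 at 8.5 and 10.95, and HDAC10 at 6.09 and 5.42. HDAC5, a class IIa enzyme, had the largest difference of 0.51, from 9.76 to 14.3 FPKM, and it also went from 4.42 to 13.1 in DMSO. Among 16 known response markers of HDAC inhibitors the median was -0.12 at 200 nM, with 1 member higher and 1 lower by 1.5-fold. CDKN1A, the cell cycle inhibitor p21, stood at 48.8 and 52.9 FPKM at 200 nM, 13.2 and 44.3 in DMSO, and 30.6 and 25.8 at 100 nM. GSN, the actin-severing protein gelsolin, stood at 45.6 and 39.2 FPKM at 200 nM and CLU, the chaperone clusterin, at 59.6 and 65.4. These 3 markers thus kept their 200 nM level. Of 18 measured histone genes 16 were lower at 48 h of 200 nM, with a median of -0.25, close to the -0.23 in DMSO, while the 100 nM median was 0.31.

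Genes that the study discusses for calcium signalling, exocytosis and invasion were also followed from 24 h to 48 h of 200 nM. RGS2, which shuts off Gq signals, stood at 7.62 and 11.2 FPKM at 200 nM, 4.70 and 6.75 in DMSO, and 8.23 and 5.08 at 100 nM, a 200 nM difference of 0.50. PLCB3, the phospholipase under Gq, stood at 34.5 and 29.03 FPKM. PCDH1, a protocadherin, stood at 10.2 and 12.5 FPKM at 200 nM, 0.08 and 3.08 in DMSO, and 3.21 and 0.15 at 100 nM. SCIN, an actin-severing protein, stood at 3.77 and 3.70 FPKM at 200 nM, 0.17 and 1.32 in DMSO, and 1.29 and 0.31 at 100 nM. CALB2, the calcium buffer calretinin, stood at 11.3 and 14.5 FPKM at 200 nM, and 1.12 and 7.34 in DMSO. These 3 transcripts were higher in both 200 nM libraries than in any other library.

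Of the synaptotagmin group, SYTL2 stood at 5.93 and 6.26 FPKM at 200 nM, SYT12 at 1.09 and 2.36, TC2N at 1.46 and 1.37, and SYT7 at 1.47 and 0.79. SYT1, RYR2 and MMP2 were under 1 FPKM in both 200 nM libraries. MMP1, interstitial collagenase, went from 8.16 to 14.9 FPKM at 200 nM, from 9.44 to 14.1 in DMSO and from 14.03 to 5.82 at 100 nM. MMP15, a membrane-bound MMP, went from 7.52 to 3.64 FPKM at 200 nM (-0.88), from 0.50 to 1.33 in DMSO and from 2.48 to 1.10 at 100 nM, and was the MMP or TIMP lower by 1.5-fold at 200 nM. MMP3 stood at 0.60 and 1.10 FPKM at 200 nM, and MMP16 at 1.66 and 1.51. MMP14, the membrane collagenase, was the only one of 12 measured MMPs and TIMPs past 2-fold, at 23.4 and 50.1 FPKM at 200 nM against 59.3 and 63.7 in DMSO. The list median was -0.01 at 200 nM and 0.45 in DMSO. Calcium channels, stores and pumps gave a median of 0.08 over 24 members, 1 of them past 1.5-fold (the store-operated channel subunit ORAI3, from 7.84 to 14.7 FPKM), and genes of Gq, phospholipase C and RGS gave 0.08 over 24 members, also with 1 past 1.5-fold (PLCB1, from 3.35 to 6.14 FPKM).

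Hypoxia targets were higher with time in each arm, with the smallest median at 200 nM. Glycolytic enzymes and hypoxia targets were higher in 30 of 35 members at 200 nM, 8 by at least 1.5-fold, with a median of 0.26 (0.44 in DMSO, 0.48 at 100 nM). NDRG1, a stress protein induced in hypoxia, went from 343 to 688 FPKM at 200 nM, from 101 to 528 in DMSO and from 172 to 555 at 100 nM. At 24 h the NDRG1 level was higher with each dose, and at 48 h the 3 arms were closer. The integrated stress response list had a median of 0.22 over 24 members with genes on both sides, NUPR1 going from 0.40 to 2.35 FPKM and DDIT3, the factor CHOP, from 6.44 to 12.9, while SLC7A5 and SLC3A2 were lower. Among 21 endoplasmic reticulum chaperones 16 were higher, with a median of 0.23 (0.13 in DMSO, -0.10 at 100 nM), led by MANF, from 66.1 to 119 FPKM. HSP90AA1, the inducible cytosolic HSP90, went from 1297 to 705 FPKM at 200 nM, from 1110.3 to 687 in DMSO and from 1184 to 596 at 100 nM.

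**Figure D5:**
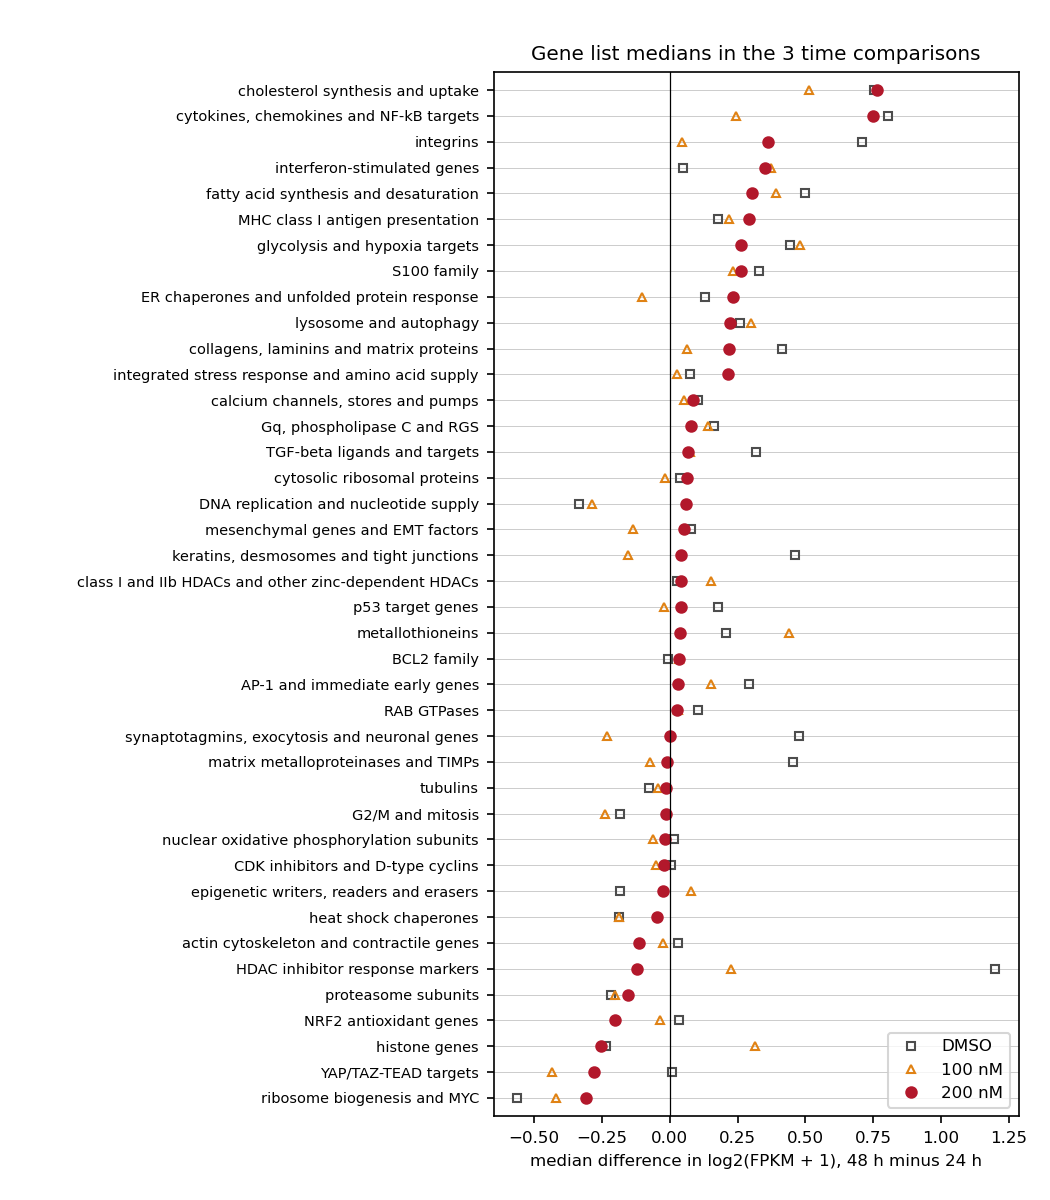
Median difference in log2(FPKM + 1) between 48 h and 24 h (x axis) of the 40 gene lists (rows, ordered by the 200 nM value) at 200 nM (filled circles), in DMSO (open squares) and at 100 nM (open triangles), with no error since each condition had 1 library. Cholesterol and cytokine lists lead at 200 nM, and the HDAC inhibitor markers show the widest gap between DMSO and 200 nM.

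Several lists were close to the median of all genes at 200 nM. Nuclear subunits of oxidative phosphorylation gave -0.02 over 58 members, tubulins -0.01 over 14, the BCL2 family 0.04 over 17, CDK inhibitors and D-type cyclins -0.02 over 13, p53 targets 0.04 over 24, and epigenetic writers, readers and erasers -0.02 over 34. None of the oxidative phosphorylation, tubulin, cyclin or epigenetic genes passed 1.5-fold. Of the p53 and BCL2 lists, BBC3, the pro-apoptotic protein PUMA, went from 2.67 to 5.93 FPKM at 200 nM, from 3.04 to 6.64 in DMSO and from 1.76 to 7.68 at 100 nM. Among RAB GTPases, which steer vesicles, RAB27B went from 3.42 to 9.48 FPKM and its relative RAB27A from 7.04 to 13.3, in a list whose median was 0.03.

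The called genes were spread over the genome and over expression levels. Of the 109 called genes 85 reached an FPKM of 1 in both libraries and 60 reached 10 FPKM in either, 50 of them higher and 10 lower. The share called in either direction was 1.74% of the 1150 genes with a mean under 2 FPKM and between 0.668% and 0.888% of genes in the bins from 5 FPKM upward. Among the 2940 genes with the longest spans none was called lower and 15 were called higher. Of the called genes, 7 were listed at 0 in 1 of the 2 libraries (4 higher, 3 lower), among them ABHD14A-ACY1, TNFSF12-TNFSF13 and EIF3CL, which overlap or copy other genes, so that their values are uncertain. At the 2-fold line, SNCG (2.69 and 6.38 FPKM), SOST (0.86 and 2.72) and NR2F1 (11.96 and 24.9) lay just inside, and TNS4 (2.44 and 5.87), CYBRD1 (39.1 and 78.8) and CEBPD (3.5 and 7.95) just outside. Below it, SYP lay just inside and PEX39 (5.16 and 2.09) just outside.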

How the data were processed

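RNA-seq of MDA-MB-231 cells gave 6 libraries, 1 per dose and time. Per the submitters' processing notes, the authors used Bowtie2, RSEM and the hg19 build, whose versions are not given in the sources used here, and deposited 1 table of FPKM values per library, rounded to 2 decimals, with gene coordinates. From these, log2(FPKM + 1) differences were computed (Python 3.11.15, pandas 2.3.3, numpy 2.4.6) where either library reached an FPKM of 1. Symbols were found for 16585 of 16623 genes in a RefSeq table, and the script was checked on simulated data. Depth was estimated from the steps of low FPKM values. Promoter sequences came from RefSeq on GRCh38.p14, with no conversion between builds. With 1 library per condition no test was made, and n is 1 throughout.

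The members and the gene lists were chosen with earlier results of these data known. Genes were named as the 12 with the largest difference in each direction, the 10 in each direction among genes reaching 10 FPKM, up to 4 per list and 6 per group of early genes, together with the genes the study discusses. The other genes named (among them CDKN1A, GSN, CLU, SREBF2, STARD4, PMVK, NFKBIA, CXCL2, CCL5, BCL3, PTGES, SERPINH1, ANXA3, TGFB1I1, ISG15, MMP16, several HDACs and the genes at the 2-fold line) and the motifs searched were chosen after their values were seen. Alternatives were other pseudocounts, filters, scalings and a 1.5-fold threshold, and 3 added after seeing the data. Some results are not reported here.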

Additional observations from a re-analysis of the deposited data

Results flagged for a closer look

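For the 16 HDAC inhibitor response markers the median 48 h minus 24 h difference in log2(FPKM + 1) was -0.12 at 200 nM and 1.2 in DMSO, in opposite directions. The DMSO value rests on the library labelled DMSO 48 h, and with the 48 h libraries of DMSO and 100 nM exchanged the median was 0.55 against DMSO 24 h. NMI had a difference of 1.09 at 200 nM and -0.70 in DMSO. TGIF2-RAB5IF had -2.20 and 1.58, SULT1A4 had 2.18 and -1.05, and SERF1A had 1.93 and -3.33, and each of these 3 was listed at 0 in a library of the pair and overlaps or copies another gene. All 5 were picked out because the 200 nM and DMSO libraries moved in opposite directions, and with 1 library per condition none of these differences between the arms was tested.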

How the results depend on the processing

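No paired analysis was possible because no result came from a test and no condition had a second library. No named gene past 2-fold at 200 nM changed direction under the other pseudocounts, filters and scalings. With the 48 h libraries exchanged the DMSO median of YAP, TAZ and TEAD targets went from 0.01 to -0.11, and CXCL8 was higher, not lower, at 48 h against 100 nM 24 h. At 200 nM the number of higher genes was 203 and 224 at pseudocounts of 0.1 and 0.01, 141 in TPM and 454 at 1.5-fold, and of lower genes 69, 81, 42 and 243. In the DMSO pair the higher genes numbered 565, 589, 435 and 978 and the lower 42, 48, 33 and 224 in the same order, or 184 and 29 with the 48 h libraries exchanged. In the 100 nM pair the higher genes numbered 227 and 243 at the pseudocounts and 571 at 1.5-fold, the lower 236, 271, 172 and 578, and 59 and 7 with the exchange. The early raised genes followed numbered 379 and 416 at the pseudocounts, 99 where both libraries had to reach 1 FPKM, 280 in TPM, 636 at 1.5-fold and 4 when chosen against DMSO 48 h. The share that faded was 6.76% at 1.5-fold, the share that grew 13.9% at a pseudocount of 0.01, and against DMSO 48 h they were 75% and 25%, with a median of -1.58. The early lowered genes numbered 33, 40, 7, 22, 137 and 56, and their median was 0.53, 0.35, 0.23, 0.54, 0.28 and 0.98, in that order of alternatives, 0.24 with median-of-ratios scaling and 0.23 without genes listed at 0. The cytokine median was 0.85 at a pseudocount of 0.01 and 0.58 without the filter. The causes of these moves were not tested. Of the remaining list medians 751 moved by at most 0.1 and 40 by more, and of values for named genes 465 kept their side of the 2-fold line and 18 crossed to beyond it. Precision is limited by 1 library per condition, and for genes near 1 FPKM by 31.7 to 37.1 fragments on a transcript of 2 kb.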

Other observations

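Lysosome and autophagy genes, not described above, were higher at 48 h of 200 nM in 26 of 33 measured members, 2 of them by at least 1.5-fold, with a median of 0.22 (0.26 in DMSO, 0.30 at 100 nM). Among 10 genes of the S100 family, small calcium-binding proteins, 8 were higher, with a median of 0.26. Of 36 actin and contractile genes 21 were lower, not far from the share over all genes (5908 of 11760), with a median of -0.11.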
